A study of Rattus norvegicus with 18 samples.

Results

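The genes described are 195 solute carriers of the rat cortical collecting duct, a late tubule segment of the kidney cortex that adjusts how much salt, acid and water leave in the urine. They were selected on their symbol and on a measured value, a mean level of 1 TPM or more across the 9 libraries of saline-injected rats. TPM is a level corrected for transcript length and scaled to the same total in every library. Of 32883 rows of the deposited table, 364 carried a solute carrier symbol, and 161 of these lay under 1 TPM. 9 carriers of acid, base, glucose, zinc, calcium and salt transport were set aside by name, of which 8 had reached 1 TPM. 4 of the 195 genes encode partner proteins that carry a solute carrier symbol only by name: Slc9a3r1 and Slc9a3r2, the scaffolds NHERF1 and NHERF2, Slc4a1ap and Slc7a6os.

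The ducts came from male Sprague-Dawley rats that had received an intraperitoneal injection of lipopolysaccharide (LPS), a bacterial cell wall component, or of normal saline as Vehicle, 3 h before dissection. Each group held 3 numbered samples with 3 libraries each, 18 libraries in all. The samples were microdissected tubules, in which neighbouring cells can be present, and RNA was amplified from very small inputs. The table gives no read numbers, so depth is unknown.

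Solute carriers are membrane proteins that move ions, metals, sugars, amino acids, nucleotides and vitamins across the plasma membrane and the membranes of organelles. Many work as exchangers or as cotransporters that use a sodium or proton gradient. In the collecting duct, principal and intercalated cells use them for acid and base exchange, volume control and fuel supply, while the large mitochondrial family links the cytosol to respiration.

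The labelled segment was checked against its markers. The 8 principal cell markers, Aqp2 among them, summed to 12720, 9192 and 9676 TPM in LPS samples 1, 2 and 3, against 15730, 15520 and 17150 TPM in Vehicle samples 1, 2 and 3. The 8 intercalated cell markers summed to 5917, 5151 and 4608 TPM with LPS and to 6516, 6688 and 6552 TPM with Vehicle. Neither sum overlapped between the groups. Of the 8 principal cell markers 5 were called lower with LPS (Aqp2, Aqp3, Avpr2, Gata3 and Hsd11b2) and 0 higher. Of the 8 intercalated cell markers 2 were called lower (Kit and Atp6v0d2) and 0 higher. Over all tested genes 22.2% were called lower. These sums and calls are in the deposited TPM. After scaling libraries by their median ratio, none of these principal and intercalated cell calls was kept (limma's adjusted p between 0.0608 for Avpr2 and 0.868 for Atp6v0d2). After quantile normalization those of Aqp3, Avpr2, Gata3 and Hsd11b2 were kept, and those of Aqp2, Kit and Atp6v0d2 were not. Markers of other segments varied between samples. The 7 distal convoluted and connecting tubule markers reached 5014 TPM in Vehicle 1 and between 33.8 and 229 TPM in the other samples, 3 of 5 tested were lower with LPS, and Pvalb was listed at 0 throughout. Calb1 alone took 4943 TPM of the Vehicle 1 sum. Trpv5 (21.0 TPM) and Slc8a1 (29.5 TPM) were also highest in Vehicle 1. Wnk4 was alike in the Vehicle samples (17.4, 16.8 and 17.1 TPM), Trpm6 was highest in Vehicle 3, and Slc12a3 had 0.0733 TPM in Vehicle 1. The 6 thick ascending limb markers summed to 97.9, 274 and 123 TPM with LPS and 95.0, 75.2 and 74.5 TPM with Vehicle, with 1 of 6 called higher. In libraries, the sum for distal markers peaked at 9821 TPM in library 1 of Vehicle 1, that for thick ascending limb at 519.6 TPM in library 1 of LPS 2 and that for proximal tubule at 60.6 TPM in library 2 of LPS 1. Without these 3 libraries, a set chosen after the data were seen, 3 of the carriers were called higher and 11 lower, of 13 and 50 with all libraries.

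At baseline the carriers ran between 1.07 and 3839 TPM. The values in this paragraph are the ones the genes were chosen by and are given as a description. 152 of the 195 stood at 5 TPM or more in Vehicle, 85 at 20 TPM or more, 17 at 100 TPM or more and 2 at 1000 TPM or more, with a median of 15.4 TPM. Slc25a5, an ADP/ATP carrier of the inner mitochondrial membrane, was the highest at 3839 ± 829 TPM in Vehicle (SD, n = 3). Slc25a3, the mitochondrial phosphate carrier, had 1583 ± 223 TPM and Slc25a4, another ADP/ATP carrier, 529.6 ± 33.8 TPM. Slc25a4, Slc25a5 and Slc25a6 are close paralogs whose reads are shared out by estimate, so their split is uncertain. Next came the mitochondrial carriers Slc25a11 for oxoglutarate (394 ± 20.9 TPM) and Slc25a39 for glutathione (325 ± 41.7 TPM), and Slc3a2, the heavy chain of several amino acid exchangers (279 ± 24.2 TPM). Slc48a1, a heme transporter, had 239 ± 18.8 TPM, Slc44a4, a choline-like transporter, 228 ± 65.4 TPM, the scaffold Slc9a3r1 227 ± 25.1 TPM and Slc25a10, the dicarboxylate carrier, 225 ± 9.41 TPM.

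Transport roles were assigned by hand from the gene families. By role, the 38 mitochondrial carriers had the highest median, 35.2 TPM, and the 22 genes of the nucleotide sugar and Golgi group had 28.3 TPM. The 27 plasma membrane and organellar carriers of inorganic ions had a median of 5.77 TPM and ranged between 1.07 and 89.0 TPM. The order of these medians is a description of the selected genes and was not tested.

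**Figure D1:**
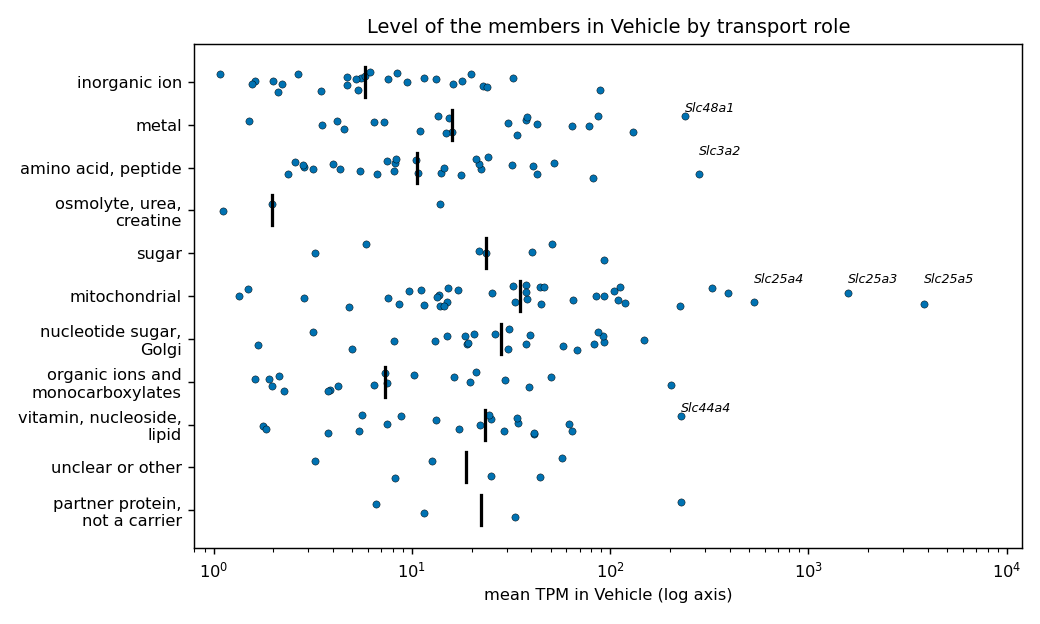
Mean TPM in Vehicle (log axis) of each of the 195 genes, 1 point per gene, grouped by assigned transport role. Vertical bars are group medians. The mitochondrial group holds the highest points, Slc25a5 at 3839 TPM and Slc25a3 at 1583 TPM.

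The edge of the selection was narrow. Just inside stood Slc26a8 at 1.07, Slc14a1 at 1.12, Slc25a27 at 1.35, Slc25a21 at 1.48 and Slc11a1 at 1.51 mean TPM in Vehicle. Just outside stood Slc6a18 at 0.993, Slc17a4 at 0.987, Slc25a22 at 0.982, Slc5a2 at 0.977 and Slc22a12 at 0.941 mean TPM. Slc14a1, a urea transporter, rested on a single library at 10.03 TPM in Vehicle 1; the other 8 Vehicle libraries were at or near 0.

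LPS was compared with Vehicle by limma on log2(TPM + 1), each sample entering as the average of its libraries, with the sample number as a block. Rows whose mean over the 18 libraries reached 1 TPM were kept. That filter took 12393 genes and 193 of the 195 carriers; Slc14a1 and Slc25a27 did not pass. Calls needed a Benjamini-Hochberg adjusted p under 0.05, with the adjustment over all tested genes. The Vehicle values that selected the genes also enter this comparison, so the counts below are descriptions.

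13 carriers were called higher with LPS, 6.74% of those tested, beside 7.17% of all tested genes. 50 were called lower, 25.9%, beside 22.2% of all tested genes, and 130 were not called. Both shares lay near the background. In bulk tubules, fewer cells of a type and less RNA per cell cannot be told apart. On the deposited scale the median gene was itself lower with LPS, by a log2 change of -0.38 over all tested genes, and the median carrier stood at -0.48. After scaling libraries by their median ratio, the median gene stood at -0.01 and the median carrier at -0.12, with 13 carriers called higher and 13 lower; over all genes 6.87% were then called higher and 3.7% lower. After quantile normalization 12 carriers were called higher and 12 lower, beside 6.43% and 4.5% of all genes. All 13 rises and all 50 falls kept their sign under both scalings, but 38 of the falls and 3 of the rises were no longer called under at least 1 of them. The number of calls changed when a sample number was left out, which also leaves fewer residual degrees of freedom. Limma called 14 carriers higher and 72 lower without number 1, 2 higher and 7 lower without number 2, and 0 in either direction without number 3 (14 higher and 22 lower at an unadjusted p under 0.05). All 63 kept their sign each time, and the median carrier stood at -0.60, -0.44 and -0.39 without numbers 1, 2 and 3. These carriers were called in the same samples, so the signs kept here and under both scalings are a description. The 22 genes called on all 3 scales, 10 higher and 12 lower, carry the account that follows. The share of all tested genes called on all 3 scales was not counted. Numbers of carriers called on all 3 scales, here and by role, therefore have no background beside them and are a description. Values are listed in the order of samples 1, 2 and 3, and every adjusted p is limma's on the deposited scale unless another scale is named.

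The 3 LPS samples lay above the 3 Vehicle samples for 16 carriers (8.29%, beside 9.82% of all tested genes), below them for 111 (57.5%, beside 47.1%), and overlapped for 66. Summed over the 195 genes, carriers took 13132, 9953 and 10539 TPM in LPS samples, against 13566, 12311 and 12354 TPM in Vehicle samples, and the 2 ranges overlap. Without the 3 most abundant genes the sums were 6151, 5222 and 5274 TPM in LPS samples, against 6609, 6688 and 7078 TPM in Vehicle samples, and do not overlap. The median carrier stood at 13.2, 9.99 and 10.3 TPM in LPS samples, against 16.4, 14.5 and 16.7 TPM in Vehicle samples, also without overlap. LPS 1 was most often the LPS sample nearest to Vehicle. It was the highest LPS sample in 46 of the 50 carriers called lower and the lowest LPS sample in 11 of the 13 called higher. The same count over all tested genes was not made. Over all tested genes LPS 1 also lay nearest to Vehicle on the first principal component, the main axis of difference between samples. There LPS samples stood at 16.8, 70.2 and 68.4 and Vehicle samples at -47.9, -51 and -56.6, so this place of LPS 1 is not particular to the carriers. The median coefficient of variation of the carriers was 22.7% over the LPS samples and 12.5% over the Vehicle samples, against 21.0% and 13.3% for all tested genes.

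**Figure D2:**
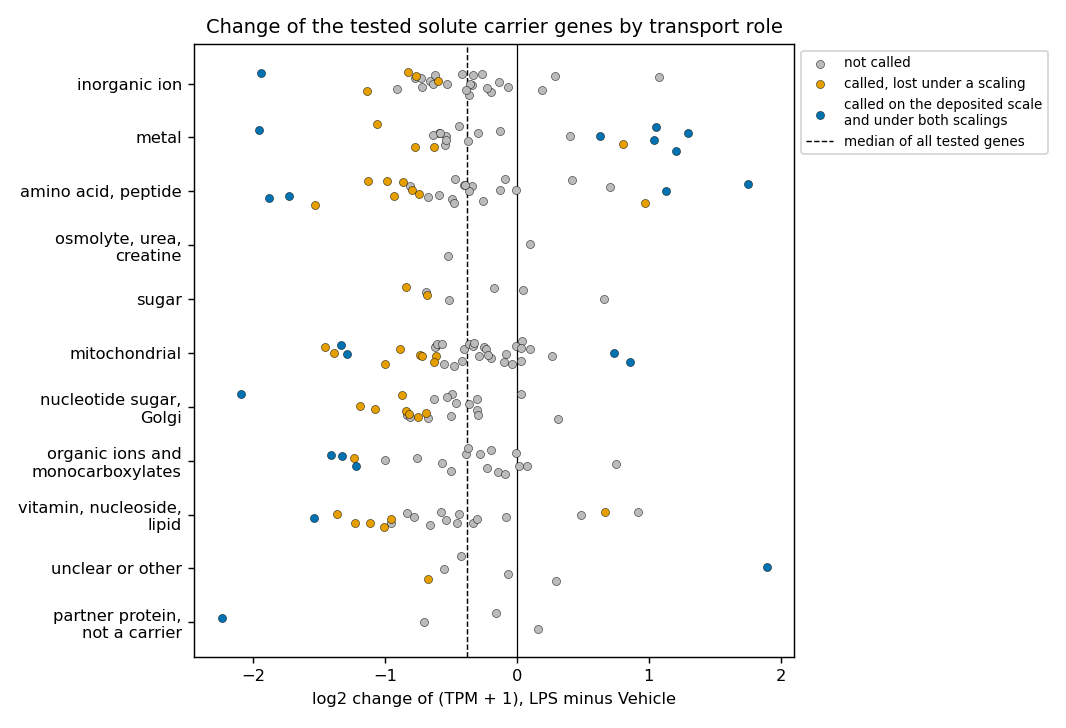
Log2 change of TPM + 1, LPS minus Vehicle, for the 193 tested genes, 1 point per gene, grouped by assigned transport role. Blue points were called on the deposited scale and under both scalings, orange points were lost under a scaling and grey points were not called; the dashed line is the median of all tested genes, -0.38. Metal carriers hold 5 of the 10 blue points to the right of 0.

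The largest rise belonged to Slc66a2 (ENSRNOG00000059215), a membrane protein of the PQ-loop family whose cargo is not settled. It had 149.6, 249 and 259.6 TPM in LPS samples, against 57.5, 59.1 and 53.9 TPM in Vehicle samples. Every LPS value was above every Vehicle value, with a log2 change of 1.90 ± 0.21 (SE, adjusted p = 0.00256) and a 95% interval of 1.41 to 2.38. The largest fall belonged to the scaffold Slc9a3r2, which tethers transporters and kinases under the membrane. It had 0.577, 0.277 and 0.363 TPM in LPS samples, against 9.48, 2.16 and 8.09 TPM in Vehicle samples. All LPS values lay under 1 TPM and all Vehicle values above it, with Vehicle 2 the lowest of the Vehicle samples, and the log2 change was -2.24 ± 0.35 (SE, adjusted p = 0.00849). Its relative Slc9a3r1 did not pass the test, with a change of 0.16 ± 0.14 (SE, adjusted p = 0.361). The 7 endothelium markers were summed beside Slc9a3r2. They took 62.3, 22.6 and 61.8 TPM in LPS samples, against 89.3, 19.0 and 68.3 TPM in Vehicle samples. LPS 2 and Vehicle 2 were the lowest of their groups in both, but the marker groups overlap. Of 6 tested markers 1 was called higher (Flt1) and 1 lower (Egfl7), beside 7.17% and 22.2% of all tested genes. Their part in the fall of Slc9a3r2 was not tested. Slc35g1 (ENSRNOG00000029740), a member of the nucleotide sugar transporter family, had the smallest adjusted p of all 193 carriers. It had 29.2, 13.6 and 15.9 TPM in LPS samples, against 95.7, 68.6 and 85.4 TPM in Vehicle samples, a change of -2.10 ± 0.20 (SE, adjusted p = 0.00163), and no LPS value reached the lowest Vehicle value.

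**Figure D3:**
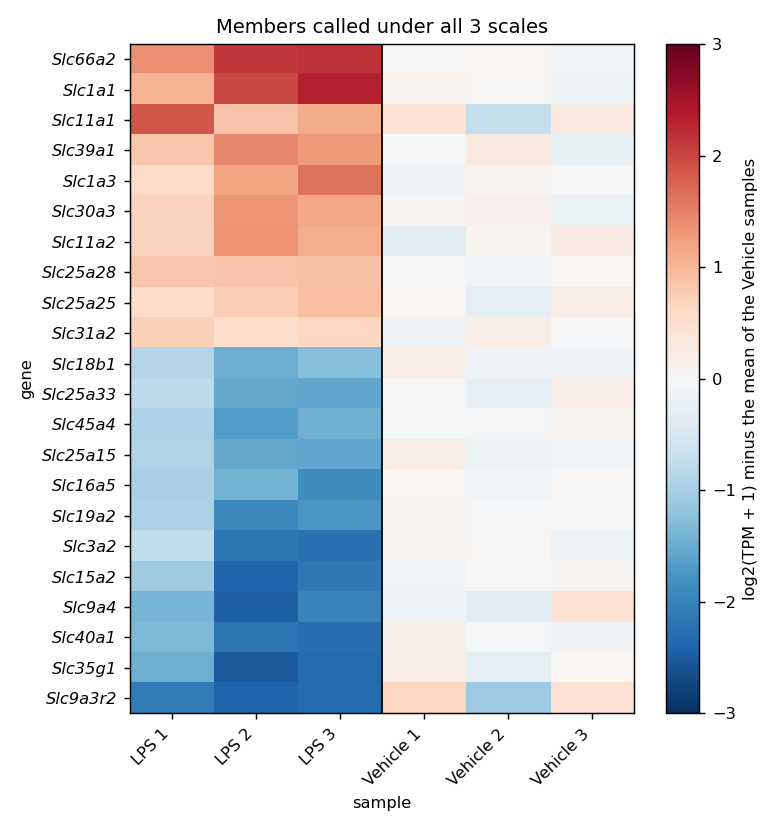
Log2(TPM + 1) of each sample minus the mean of the 3 Vehicle samples for the 22 genes called on the deposited scale and under both scalings, red above and blue below that mean. LPS 1 has the palest LPS column in most genes, and no LPS sample takes the opposite colour in any gene.

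Promoter sequence was read from RefSeq (GRCr8; 250 bases before and 50 after each gene's start) for the 150 carriers whose symbol matched an entry. 3 short motifs were searched on both strands, each by itself. TTTCNNTTT is the core of the interferon-stimulated response element, and TTCNNNGAA is the STAT-binding GAS element, which reads alike on both strands. TGCACNC is 1 form of the core of the metal response element, and other forms were not searched. The first was present in 12.4% of 27457 genes and in 7 of 150 carriers (4.67%). It was found in 2 of the 9 matched carriers called higher, Slc1a3 and Slc31a2, and in 1 of 38 called lower, Slc9a2. With a further C at the end of this motif, a version 1 base longer that was searched earlier, 4.12% of genes and 4 carriers held it, of those called only Slc1a3 and Slc9a2. The GAS letters were present in 9.39% of genes, in 7 carriers (4.67%), in 0 of 9 called higher and in 3 of 38 called lower, Slc35b3, Slc46a3 and Slc9a4. The metal response letters were present in 13.2% of genes, in 20 carriers (13.3%), in 1 of 9 called higher, Slc31a2, and in 5 of 38 called lower, Slc25a33, Slc35g1, Slc39a13, Slc43a1 and Slc46a3. A match is a run of letters and not a binding site, and the absence of one says only that these letters are not in this window. The 5 promoters below are those of genes called on all 3 scales that hold a motif, written 5′ to 3′ on the gene's strand, each with 1 kind of motif in capitals: the interferon-response letters in Slc1a3 (1 of 3 windows listed for this gene), GAS in Slc9a4, at 2 places, and the metal response letters, on either strand, in Slc31a2, Slc25a33 and, at 2 places, Slc35g1. The interferon-response letters of Slc31a2, on the opposite strand near the start of its window, are left in lower case.
Slc1a3 promoter, chr2:59557759-59558058, minus strand: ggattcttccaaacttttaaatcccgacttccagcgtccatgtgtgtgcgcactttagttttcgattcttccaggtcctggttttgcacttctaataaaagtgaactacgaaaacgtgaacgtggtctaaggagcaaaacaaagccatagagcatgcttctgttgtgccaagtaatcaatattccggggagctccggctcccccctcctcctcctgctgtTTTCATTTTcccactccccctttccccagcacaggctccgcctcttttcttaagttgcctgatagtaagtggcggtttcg
Slc31a2 promoter, chr5:80753368-80753667, plus strand: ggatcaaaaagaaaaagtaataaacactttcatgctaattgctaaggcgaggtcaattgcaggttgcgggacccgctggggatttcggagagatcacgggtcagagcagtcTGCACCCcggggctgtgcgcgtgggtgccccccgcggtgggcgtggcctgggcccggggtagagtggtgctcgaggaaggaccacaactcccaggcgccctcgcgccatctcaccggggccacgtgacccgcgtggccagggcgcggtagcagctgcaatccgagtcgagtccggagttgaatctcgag
Slc9a4 promoter, chr9:50320698-50320997, plus strand: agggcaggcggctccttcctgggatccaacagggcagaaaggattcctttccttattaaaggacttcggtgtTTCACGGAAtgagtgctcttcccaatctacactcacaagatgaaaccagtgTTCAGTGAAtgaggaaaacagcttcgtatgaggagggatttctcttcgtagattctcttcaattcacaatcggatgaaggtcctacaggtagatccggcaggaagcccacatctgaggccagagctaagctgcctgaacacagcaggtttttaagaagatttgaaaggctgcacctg
Slc35g1 promoter, chr1:245575761-245576060, plus strand: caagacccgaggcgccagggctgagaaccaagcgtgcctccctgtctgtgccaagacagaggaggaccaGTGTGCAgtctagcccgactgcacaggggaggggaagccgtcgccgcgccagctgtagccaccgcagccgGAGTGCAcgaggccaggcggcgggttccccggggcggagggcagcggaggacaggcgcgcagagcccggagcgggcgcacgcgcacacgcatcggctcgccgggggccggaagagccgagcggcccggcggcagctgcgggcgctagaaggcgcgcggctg
Slc25a33 promoter, chr5:165502924-165503223, minus strand: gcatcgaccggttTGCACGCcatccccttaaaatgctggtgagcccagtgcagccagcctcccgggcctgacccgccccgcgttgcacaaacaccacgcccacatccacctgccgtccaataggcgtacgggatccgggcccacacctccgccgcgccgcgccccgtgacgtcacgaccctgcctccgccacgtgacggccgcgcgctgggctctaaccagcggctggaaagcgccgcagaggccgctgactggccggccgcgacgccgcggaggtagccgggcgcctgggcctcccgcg

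Among metal carriers, iron, zinc and copper genes moved in both directions. Of 21 members 6 were called higher and 4 lower, and 5 of the rises and 1 of the falls were called on all 3 scales. The shares over all tested genes were 7.17% higher and 22.2% lower. The median log2 change of the group was -0.44, beside -0.38 for all tested genes.

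Slc11a2 encodes DMT1, which brings ferrous iron across the plasma and endosomal membranes. It had 210.2, 329 and 276 TPM in LPS samples, against 102, 137 and 154 TPM in Vehicle samples. The lowest LPS sample exceeded the highest Vehicle sample, and the log2 change was 1.04 ± 0.15 (SE, adjusted p = 0.00752). Slc40a1 encodes ferroportin, the only known cellular iron exporter in mammals. It had 5.15, 2.43 and 2.22 TPM in LPS samples, against 16.9, 14.0 and 13.5 TPM in Vehicle samples, every LPS value under every Vehicle value, with a change of -1.96 ± 0.23 (SE, adjusted p = 0.00342). Slc25a28, mitoferrin-2, which takes iron into mitochondria, was tightly grouped. It had 46.1, 46.8 and 47.4 TPM in LPS samples, against 26.1, 23.7 and 26.3 TPM in Vehicle samples, with a change of 0.86 ± 0.17 (SE, adjusted p = 0.0178). Its relative Slc25a37, mitoferrin-1, did not pass the test (0.03, adjusted p = 0.927). The heme transporter Slc48a1 had 204, 143 and 152 TPM in LPS samples, against 224, 260.3 and 234 TPM in Vehicle samples; the groups do not overlap, but the change of -0.54 ± 0.18 (SE, adjusted p = 0.0593) missed the threshold.

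Slc11a1, which encodes NRAMP1, a metal pump of phagosomes best known in macrophages, had 7.63, 3.26 and 4.12 TPM in LPS samples, against 2.18, 0.433 and 1.91 TPM in Vehicle samples. LPS 1 was the highest, Vehicle 2 was the lowest, and the change was 1.3 ± 0.27 (SE, adjusted p = 0.0191). The 10 macrophage and monocyte markers were summed beside it: they took 419, 253 and 200 TPM in LPS samples, against 242, 118 and 167 TPM in Vehicle samples. LPS 1 was again the highest and Vehicle 2 the lowest. Lyz2, which was not called, took 253 TPM of the LPS 1 sum. C1qa, C1qb, Csf1r, Fcer1g, Lyz2 and Tyrobp were each highest among LPS samples in LPS 1 and lowest among Vehicle samples in Vehicle 2. Among LPS samples Cd14 was highest in LPS 2, and Cd68, Itgam and Ptprc in LPS 3. Of 8 tested markers 4 were called higher (C1qa, Cd14, Fcer1g and Tyrobp) and 1 lower (Csf1r), beside 7.17% and 22.2% of all tested genes. None of the 10 was at 0 throughout, and their part in the rise of Slc11a1 was not tested.

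Zinc importers and exporters both appeared among the calls. Slc39a1 (ZIP1), an importer at the plasma membrane, had 8.83, 14.0 and 12.3 TPM in LPS samples, against 4.25, 5.69 and 3.72 TPM in Vehicle samples, a change of 1.20 ± 0.22 (SE, adjusted p = 0.0145). Slc30a3 (ZnT3), which loads zinc into vesicles, had 6.23, 10.2 and 9.15 TPM in LPS samples, against 3.73, 3.94 and 2.91 TPM in Vehicle samples, a change of 1.06 ± 0.24 (SE, adjusted p = 0.0246). Both genes had all LPS samples above all Vehicle samples. Slc30a7, a Golgi zinc importer, was called on the deposited scale (0.80, adjusted p = 0.047) and missed the threshold under median-ratio scaling (adjusted p = 0.0631) and quantile normalization (adjusted p = 0.0577). Slc39a13 (ZIP13) and Slc39a6 (ZIP6) were called lower on the deposited scale (-1.06 and -0.77) and under neither scaling. The other ZIP and ZnT family members among the selected genes were not called.

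The copper pair split. Slc31a1 (CTR1), the high-affinity copper importer, had 58.6, 48.5 and 44.2 TPM in LPS samples, against 77.4, 69.1 and 86.9 TPM in Vehicle samples, while its endosomal relative Slc31a2 (CTR2) had 50.9, 44.1 and 48.0 TPM in LPS samples, against 27.5, 35.1 and 29.2 TPM in Vehicle samples. In neither gene did the groups overlap. Slc31a2 changed by 0.63 ± 0.19 (SE, adjusted p = 0.0452) and was called on all 3 scales. Slc31a1 changed by -0.63 ± 0.18 (SE, adjusted p = 0.0431) and was not called under either scaling, where its change was -0.22 by median ratio and -0.45 by quantiles.

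**Figure D4:**
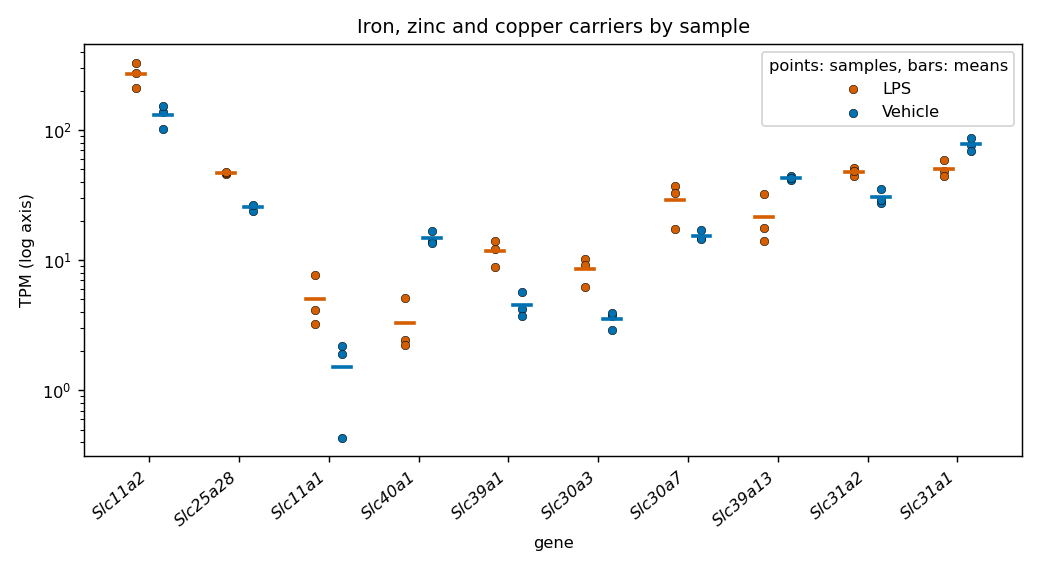
TPM (log axis) of 10 iron, zinc and copper carriers by sample, LPS in orange left of Vehicle in blue, with a bar at each group mean (n = 3). Slc11a2 lies above 200 TPM in every LPS sample and at or under 154 TPM in every Vehicle sample, and Slc40a1 lies under 6 TPM in every LPS sample and above 13 TPM in every Vehicle sample.

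Among the 28 amino acid and peptide carriers 3 were called higher and 9 lower, beside 7.17% and 22.2% of all tested genes. Their median log2 change was -0.47, beside -0.38 for all tested genes. Acidic amino acid uptake genes were among the rises. Slc1a1 (EAAC1), a sodium-coupled glutamate and aspartate transporter, had 6.32, 13.1 and 16.8 TPM in LPS samples, against 2.84, 2.64 and 2.25 TPM in Vehicle samples. All LPS samples lay above all Vehicle samples, with LPS 1 the lowest of the 3, and the change was 1.75 ± 0.33 (SE, adjusted p = 0.015). Slc1a3 (GLAST), a glutamate transporter best known in glia, had 5.25, 8.47 and 11.8 TPM in LPS samples, against 2.91, 3.43 and 3.22 TPM in Vehicle samples, again without overlap, and a change of 1.13 ± 0.25 (SE, adjusted p = 0.0239). Slc6a20, an imino acid transporter, had 16.8, 35.2 and 38.8 TPM with LPS and 14.3, 14.3 and 13.5 TPM with Vehicle. Its call (0.97, adjusted p = 0.0384) was lost under both scalings.

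Slc3a2 encodes the heavy chain, CD98, that brings LAT-type light chains to the membrane. It had 164, 60.6 and 58.2 TPM in LPS samples, against 299.6, 285 and 252 TPM in Vehicle samples. LPS 1 stood well above the other LPS samples and still under all Vehicle samples, and the change was -1.73 ± 0.27 (SE, adjusted p = 0.00898). Its light chains were lower in level, and among them Slc7a5 (LAT1) had 2.86, 5.39 and 3.10 TPM with LPS and 7.43, 7.72 and 7.30 TPM with Vehicle, with a change of -0.86 (adjusted p = 0.0368) that no scaling kept past the threshold. The light chain Slc7a8 (LAT2) had overlapping groups and was not called (-0.40, adjusted p = 0.224), nor was Slc7a6 (-0.09). Slc15a2 (PEPT2), a proton-coupled uptake carrier of small peptides, had 19.98, 7.35 and 8.86 TPM in LPS samples, against 40.8, 43.0 and 45.1 TPM in Vehicle samples, with no overlap and a change of -1.88 ± 0.30 (SE, adjusted p = 0.00907).

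The other 6 falls of the group were not called under either scaling. They were Slc6a17, a vesicular carrier of neutral amino acids known from brain (-1.53), Slc43a2 (LAT4, -1.13), Slc38a9, the lysosomal arginine sensor (-0.99), Slc16a10, an aromatic amino acid carrier (-0.94), Slc43a1 (LAT3, -0.80) and Slc7a4 (-0.75), all log2 changes on the deposited scale. Slc38a2 (SNAT2), which takes up neutral amino acids and is known to respond to amino acid shortage and to hypertonicity, had 30.9, 30.4 and 24.5 TPM with LPS and 35.3, 38.2 and 48.7 TPM with Vehicle. Its groups do not overlap and its change of -0.49 ± 0.21 (SE, adjusted p = 0.11) missed the threshold. Slc1a5 (ASCT2) and Slc7a1 (CAT1) had overlapping groups and were not called (0.71 and 0.41).

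Among the 27 inorganic ion carriers limma called 0 higher (1 at an unadjusted p under 0.05, Slc4a4) and 5 lower, and 1 of these, Slc9a4, on all 3 scales. Over all tested genes 7.17% were called higher and 22.2% lower. The median log2 change was -0.42, beside -0.38 for all tested genes. Slc9a4 (NHE4), a sodium/proton exchanger of the basolateral membrane, had 32.1, 15.0 and 20.8 TPM in LPS samples, against 78.6, 69.2 and 119 TPM in Vehicle samples. The highest LPS sample lay under the lowest Vehicle sample, and the change was -1.94 ± 0.25 (SE, adjusted p = 0.00456). Slc9a2 (NHE2) had 3.01, 1.53 and 1.3 TPM with LPS and 5.67, 4.97 and 5.33 TPM with Vehicle. Its change of -1.14 ± 0.25 (SE, adjusted p = 0.0227) was just lost under median-ratio scaling (adjusted p = 0.0565) and quantile normalization (adjusted p = 0.0608).

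Anion exchangers and phosphate carriers gave calls that depended on the scale. Slc4a2 (AE2), a basolateral chloride/bicarbonate exchanger, had 12.2, 7.37 and 7.15 TPM with LPS and 16.4, 16.6 and 15.5 TPM with Vehicle, a change of -0.82 ± 0.22 (SE, adjusted p = 0.0346). Slc4a11 changed by -0.76 (adjusted p = 0.0461) and Slc20a1 (PiT-1), a sodium-phosphate cotransporter, by -0.60 (adjusted p = 0.0472). Slc4a2, Slc4a11 and Slc20a1 were called under neither scaling. Slc20a2 (PiT-2) and Slc26a11 did not overlap between groups but missed the threshold (-0.77, adjusted p = 0.0532, and -0.73, adjusted p = 0.0592).

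Slc4a4, the electrogenic sodium bicarbonate cotransporter, had 2.72, 20.2 and 18.8 TPM with LPS and 2.96, 4.78 and 6.33 TPM with Vehicle. LPS 2 and LPS 3 stood above every Vehicle sample, LPS 1 stood under all 3, and the change of 1.08 ± 0.38 (SE, adjusted p = 0.0694) missed the threshold. Cation-chloride cotransporters set cell volume and chloride. Of these, Slc12a2 (NKCC1) had 11.3, 9.50 and 21.4 TPM with LPS and 9.13, 8.25 and 17.2 TPM with Vehicle and was not called, with a change of 0.29 (adjusted p = 0.255). Slc12a7 (KCC4) was not called either. It changed by -0.34 on the deposited scale (adjusted p = 0.269), and the change was 0.00 under median-ratio scaling and 0.06 under quantile normalization. Slc4a8, a sodium-driven chloride/bicarbonate exchanger, had 0.967, 1.31 and 1.18 TPM with LPS and 1.57, 2.43 and 4.01 TPM with Vehicle, without overlap, but missed the threshold (-0.72, adjusted p = 0.0845).

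Mitochondrial carriers were mostly not called. Of 37 tested, 2 were called higher, 10 lower and 25 not, beside 7.17% higher and 22.2% lower over all tested genes. The median log2 change was -0.36, close to -0.38 for all tested genes. Of the 6 mitochondrial carriers among the 10 most abundant genes, Slc25a11 and Slc25a10 were called lower, as described below, and 4 were not called. Slc25a5 had 4628, 2958 and 3305 TPM with LPS and 4795, 3309.6 and 3412 TPM with Vehicle, with a change of -0.08 (adjusted p = 0.496). Slc25a3 had 1827, 1418 and 1563 TPM with LPS and 1593, 1801 and 1356 TPM with Vehicle, with a change of 0.03 (adjusted p = 0.881). Slc25a4 and Slc25a39 changed by -0.33 and -0.22 (adjusted p = 0.103 and 0.364). The signs of Slc25a4, Slc25a5 and Slc25a39 were positive under median-ratio scaling (0.08, 0.33 and 0.19), and that of Slc25a3 was negative under quantile normalization (-0.13).

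Besides Slc25a28, the other rise was Slc25a25, a calcium-regulated exchanger of ATP-magnesium for phosphate. It had 22.2, 25.7 and 28.6 TPM in LPS samples, against 15.5, 12.1 and 17.3 TPM in Vehicle samples, without overlap, and a change of 0.74 ± 0.20 (SE, adjusted p = 0.0359). Slc25a15, the ornithine carrier of the urea cycle, had 8.59, 5.20 and 5.13 TPM in LPS samples, against 20, 15.3 and 16.05 TPM in Vehicle samples, a change of -1.34 ± 0.20 (SE, adjusted p = 0.00771). Slc25a33, a pyrimidine nucleotide carrier, had 18.6, 10.7 and 10.4 TPM in LPS samples, against 33.6, 27.6 and 38.0 TPM in Vehicle samples, a change of -1.29 ± 0.23 (SE, adjusted p = 0.0138). In both genes every LPS sample lay under every Vehicle sample, on each of the 3 scales both were called, and LPS 1 was the highest LPS sample. Slc25a45 had 0.817, 0.247 and 0.373 TPM with LPS and 2.61, 3.13 and 2.84 TPM with Vehicle, with a change of -1.39 ± 0.28 (SE, adjusted p = 0.0181), and it kept its call by median ratio (adjusted p = 0.0485) and just missed it by quantiles (adjusted p = 0.0543).

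The remaining 7 mitochondrial falls were called on the deposited scale alone. They were Slc25a29 for basic amino acids (-1.45), Slc25a32 for folate and FAD (-0.998), Slc25a51 for NAD (-0.89), Slc25a10 for dicarboxylates (-0.74), the outer membrane protein Slc25a46 (-0.72), the pyrimidine nucleotide carrier Slc25a36 (-0.63) and Slc25a11 for oxoglutarate (-0.61), given as log2 changes. Slc25a11 had 355, 201 and 238 TPM with LPS and 409.8, 401 and 370.1 TPM with Vehicle, and Slc25a10 had 201, 101 and 121 TPM with LPS and 236, 218 and 222 TPM with Vehicle. In both, LPS 1 stood close under the Vehicle samples and the other LPS samples well under them.

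The nucleotide sugar and Golgi group held 22 genes drawn from the Slc35 family with Slc33a1, placed by family and not by a settled cargo for each. It had 8 falls on the deposited scale and, by limma, 0 rises (0 also at an unadjusted p under 0.05). Over all tested genes 22.2% were called lower and 7.17% higher. The median log2 change of the group was -0.66, beside -0.38 for all tested genes. In the group 20 of 22 changes were below 0, beside 9486 of 12393 over all tested genes. After median-ratio scaling the median was -0.26, with 1 carrier called higher and 1 lower, and after quantile normalization it was -0.37, again with 1 of each. The rise under both scalings was Slc35c1, the GDP-fucose transporter, which was not called on the deposited scale (0.31, adjusted p = 0.212). Slc35g1, described above, was the fall called on all 3 scales. The 7 others were Slc35d1, which carries UDP-sugars for glycosaminoglycans (-1.19), Slc35f5 (-1.08), Slc35d2 (-0.87), Slc35a5 (-0.85), Slc35b3, which carries the sulfate donor PAPS (-0.82), Slc35e3 (-0.75) and the acetyl-CoA transporter Slc33a1 (-0.69). Slc35b3 had 40.2, 28.6 and 28.8 TPM with LPS and 66.0, 44.8 and 63.6 TPM with Vehicle. Slc35a4, the most abundant of the group, had 141, 104 and 103 TPM with LPS and 149.9, 146 and 147 TPM with Vehicle, and its change of -0.36 missed the threshold (adjusted p = 0.124).

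Carriers of monocarboxylates and organic ions held 4 falls among 19 members, beside 22.2% called lower over all tested genes. Of these falls 3 were called on all 3 scales. Slc16a5 (MCT6), a drug and organic anion carrier of the monocarboxylate family, had 25.1, 18.3 and 13.1 TPM in LPS samples, against 52.1, 47.7 and 51.6 TPM in Vehicle samples, a change of -1.41 ± 0.22 (SE, adjusted p = 0.00849). Slc18b1, a vesicular polyamine transporter, had 10.97, 6.80 and 7.99 TPM in LPS samples, against 24.1, 19.6 and 19.5 TPM in Vehicle samples, a change of -1.22 ± 0.19 (SE, adjusted p = 0.00938). Slc45a4, a proton-coupled carrier, had 3.44, 1.66 and 2.15 TPM in LPS samples, against 7.30, 7.17 and 8.04 TPM in Vehicle samples, a change of -1.33 ± 0.24 (SE, adjusted p = 0.0146). The 3 genes had no LPS sample as high as any Vehicle sample. Slc16a13 was called on the deposited scale alone (-1.23, adjusted p = 0.0149). Slc16a14, of the same family, had 4.97, 8.92 and 6.64 TPM with LPS and 1.42, 4.15 and 5.99 TPM with Vehicle, with overlap. It was not called on the deposited scale (0.75, adjusted p = 0.0818) and was called higher by median ratio (adjusted p = 0.0495) and by quantiles (adjusted p = 0.0432).

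The lactate carriers of this family were not called. Slc16a7 (MCT2), the most abundant, had 171, 152 and 174 TPM with LPS and 199, 223 and 183 TPM with Vehicle and changed by -0.28 (adjusted p = 0.191). Slc16a3 (MCT4), a lactate exporter, had 16.9, 16.1 and 13.4 TPM with LPS and 74.6, 23.8 and 18.1 TPM with Vehicle. The groups do not overlap, but Vehicle 1 stood far above all the other samples in each of its 3 libraries (91.9, 62.9 and 68.9 TPM), and the change of -1.003 ± 0.34 (SE, adjusted p = 0.0611) missed the threshold. Vehicle 1 was also the sample with the high sum of distal tubule markers, mostly Calb1. The part of distal cells in its Slc16a3 level was not tested.

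Vitamin, nucleoside, choline and fatty acid carriers held 1 rise and 6 falls among 20 members, beside 7.17% and 22.2% of all tested genes. Their median log2 change was -0.62, and -0.25 and -0.30 by median ratio and quantiles. For all tested genes these medians were -0.38, -0.01 and -0.13. Slc19a2 (THTR1), a thiamine transporter, had 20.7, 9.93 and 11.5 TPM in LPS samples, against 43.6, 40.3 and 39.4 TPM in Vehicle samples, without overlap, and a change of -1.54 ± 0.22 (SE, adjusted p = 0.00716) called on all 3 scales. Slc52a3, a riboflavin transporter, had 14.9, 3.87 and 3.33 TPM with LPS and 22.2, 17.4 and 12.1 TPM with Vehicle. LPS 1 lay inside the Vehicle range, and its call (-1.36, adjusted p = 0.022) was lost under both scalings. Slc46a3 (-1.23), the lysosomal nucleoside transporter Slc29a3 (-1.12), the choline-like transporter Slc44a2 (-1.01) and the fatty acid transport protein Slc27a4 (-0.96) were also called lower on the deposited scale alone.

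Slc44a4, among the 10 most abundant of all carriers at baseline, had 342, 375 and 344 TPM in LPS samples, against 189, 192 and 304 TPM in Vehicle samples. The LPS samples lay close together and above all Vehicle samples, of which Vehicle 3 was the nearest to them. Its change of 0.67 ± 0.19 (SE, adjusted p = 0.039) kept its call by median ratio (adjusted p = 0.0307) and lost it by quantiles (adjusted p = 0.0995). The folate carriers Slc19a1 and Slc46a1 were not called (-0.54 and -0.44).

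The 7 sugar carriers held 2 falls on the deposited scale, beside 22.2% called lower over all tested genes. They were Slc2a8 (GLUT8), an intracellular glucose transporter (-0.84 ± 0.24 (SE, adjusted p = 0.0395)), and Slc37a4, the glucose-6-phosphate transporter of the endoplasmic reticulum (-0.68 ± 0.21 (SE, adjusted p = 0.047)). Neither was called under a scaling. Slc37a1 had 23.9, 41.2 and 43.3 TPM with LPS and 21.9, 20.3 and 23.5 TPM with Vehicle, without overlap, and missed the threshold (0.66, adjusted p = 0.0659). Of the 6 genes with unclear or other cargo, Slc66a2 rose and Slc22a23 was called lower on the deposited scale alone (-0.68, adjusted p = 0.0484). Of 4 partner proteins only Slc9a3r2 was called.

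Osmolyte carriers, which let medullary cells hold taurine, inositol and betaine, were few at baseline. No row carried the symbol of the inositol transporter Slc5a3, so its level is not known here. Slc6a6, the taurine transporter, had 8.53, 8.52 and 7.93 TPM with LPS and 7.91, 9.99 and 23.5 TPM with Vehicle. The 3 libraries of Vehicle 3 stood at 22.4, 23.0 and 25.2 TPM, no other library exceeded 12 TPM, and the change of -0.53 ± 0.32 (SE, adjusted p = 0.225) missed the threshold. The creatine transporter Slc6a8 changed by 0.10 (adjusted p = 0.773), and its sign turned when the samples numbered 3 were left out (-0.02).

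Some of the selected genes are best known from proximal tubule. Slc34a1, the sodium-phosphate cotransporter, had 9.50, 7.13 and 0.10 TPM with LPS and 0.393, 4.64 and 10.7 TPM with Vehicle. Slc7a13, a cystine and aspartate carrier, had 3.01, 12.5 and 0.843 TPM with LPS and 0.790, 1.93 and 17.2 TPM with Vehicle. Slc3a1, a cystine transporter subunit, had 7.45, 14.1 and 1.63 TPM with LPS and 3.36, 6.48 and 15.0 TPM with Vehicle. Each was high in LPS 2 and Vehicle 3 and low in LPS 3 and Vehicle 1. The organic cation transporter Slc22a2 had 2.02, 5.97 and 0.250 TPM with LPS and 0.457, 1.18 and 4.78 TPM with Vehicle, and the organic anion transporter Slc21a4 had 1.47, 5.90 and 0.0367 TPM with LPS and 0.10, 1.10 and 5.57 TPM with Vehicle. These 5 genes were set side by side after their values were seen, and none was called (adjusted p between 0.595 and 0.993).

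The 10 proximal tubule markers other than Slc34a1 summed to 32.4, 27.8 and 5.40 TPM in LPS samples, against 6.16, 25.5 and 28.9 TPM in Vehicle samples. None of the 5 tested was called by limma, and none had an unadjusted p under 0.05. None of the 10 was at 0 throughout. LPS 3 and Vehicle 1 were low in the markers as in the 5 carriers, but the other samples differed. The marker sum and Slc34a1 were highest among LPS samples in LPS 1, whereas Slc7a13, Slc3a1, Slc22a2 and Slc21a4 were highest in LPS 2. The marker sums of Vehicle 2 and Vehicle 3 were close, whereas each of the 5 carriers was well higher in Vehicle 3. Single libraries carried most of the level: Slc7a13 stood at 47.4 TPM in library 3 of Vehicle 3 and at 32.1 TPM in library 1 of LPS 2, against at most 7.53 TPM in any other library. The part of proximal cells in these carriers was not tested beyond these values.

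**Figure D5:**
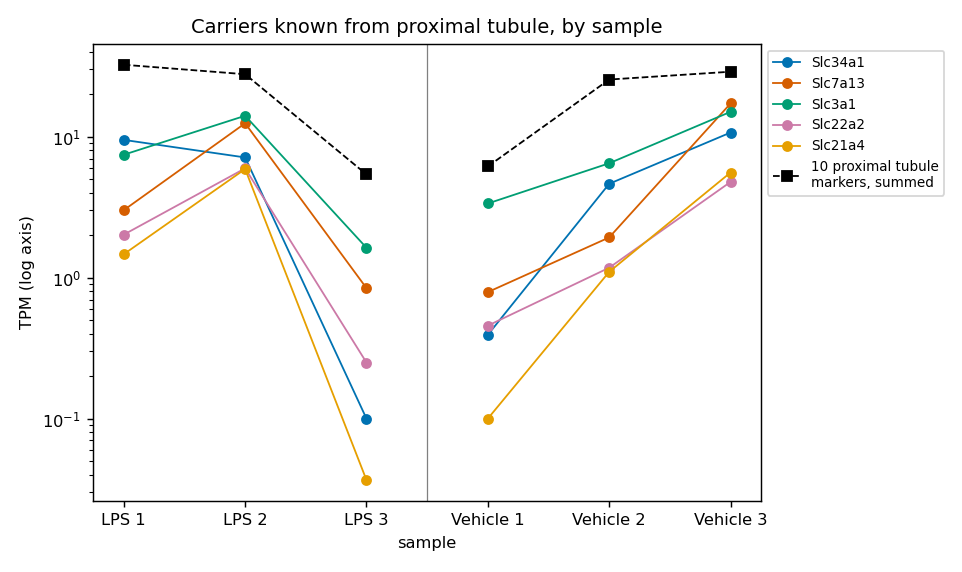
TPM (log axis) of 5 carriers known from proximal tubule in each of the 3 LPS and 3 Vehicle samples, with the summed TPM of 10 proximal tubule markers as black squares; lines join samples only to guide the eye. Carriers and markers are lowest in LPS 3 and Vehicle 1, and the groups overlap for every gene.

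2 further lists bear on how these carriers work, one of subunits and partner proteins and one of genes known to respond to tonicity or amino acid supply. Of 17 partner genes, all of them tested, 2 were called higher and 3 lower, beside 7.17% and 22.2% of all tested genes, and the median log2 change was -0.24. Cnnm4, a basolateral magnesium transporter protein, had 13.3, 28.2 and 31.1 TPM in LPS samples, against 6.13, 7.49 and 5.38 TPM in Vehicle samples, a change of 1.74 ± 0.27 (SE, adjusted p = 0.00907). Pdzk1ip1, a small membrane partner of sodium-glucose cotransport, had 789, 1579 and 1389 TPM in LPS samples, against 519.8, 586 and 643 TPM in Vehicle samples, a change of 1.05 ± 0.17 (SE, adjusted p = 0.00989). Both were called on all 3 scales. Cnnm2 (-1.16), the mitochondrial calcium uniporter Mcu (-0.79) and the ferroxidase Heph (-0.72), which works beside ferroportin, were called lower on the deposited scale alone. Bsg, the chaperone of lactate carriers, had 2541, 2119 and 2098 TPM with LPS and 2017, 2216 and 2094 TPM with Vehicle and was not called.

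Of 16 tonicity and amino acid response genes 15 were tested, and 1 was called higher and 3 lower, beside 7.17% and 22.2% of all tested genes. Their median log2 change was -0.07. Sesn2, a leucine-binding regulator of TORC1, had 12.5, 3.13 and 4.09 TPM in LPS samples, against 29.6, 33.5 and 32.2 TPM in Vehicle samples, a change of -2.32 ± 0.36 (SE, adjusted p = 0.0085) called on all 3 scales. Hif1a (-0.78) and Ddit4 (-1.56), a TORC1 inhibitor, were called lower on the deposited scale alone. Sgk1, a kinase that acts on sodium transport, was called higher with a change of 0.70 ± 0.17 (SE, adjusted p = 0.0268), though its groups overlap and its call was lost by quantiles (adjusted p = 0.0798). Nfat5, the tonicity-responsive factor, and Atf4, the amino acid response factor, were not called (-0.50 and 0.02), nor was the metal-responsive factor Mtf1 (-0.21).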

How the data were processed

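The authors deposited a table of TPM values, 1 column for each library. STAR 2.7.9a, RSEM 1.3.3 and the build Rnor_6.0 are named in the submitters' processing notes; the annotation release is not given in the sources used here. The unit keeps no read number, and RSEM shares reads between near-identical genes by estimate. Columns beginning with N were read as normal saline and L as LPS; 0 columns belonged to other samples. Values were log2(TPM + 1), averaged over 3 libraries, and tested in R 4.3.3 with limma 3.58.1 (variance trend, two-sided, Benjamini-Hochberg over 12393 genes, sample number as a block). The design text calls the samples paired; same-numbered samples correlated at 0.0622, -0.0175 and 0.0686 in their deviations, so the pairing rests on that text. The fit had 2 residual degrees of freedom and a prior of 4.97. Its p-values reflect only how far these samples spread; the labels do not tie the samples to separate animals. Adding 1 TPM understates changes of low genes. Genes named were the 10 most abundant, the 12 largest rises and falls among called genes with 3 pairs moving alike, the smallest p of each role, and a fixed set; others were named after their values were seen. A few genes under that rule are not reported here. Members and lists were chosen with earlier results of these data known. The code was tested on simulated data.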

Additional observations from a re-analysis of the deposited data

How the results depend on the processing

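All 63 carriers called kept their sign under every alternative run, but the number called changed. They were called in the same samples that these runs reuse, so the kept signs are a description and add no support. Without the replicate block 12 carriers were called higher and 73 lower, of 13 and 50 with it, and 912 and 3624 genes over all, of 889 and 2757. With the median over libraries in place of the mean, 0 carriers and 0 genes were called in either direction by limma, although 16 and 76 carriers and 1019 and 4167 genes had an unadjusted p under 0.05. With no filter on low values 0 carriers were called either way (15 and 83 unadjusted), and 18 genes were higher and 2 lower. With all 18 libraries and an estimated correlation 97 carriers and 5295 genes were lower. Fewer falls were called by median-ratio scaling (13 carriers, 458 genes) and by quantile normalization (12 carriers, 558 genes). Without the 3 libraries highest in neighbouring segment markers, an alternative added after the data were seen, 3 carriers were higher and 11 lower, and 473 and 424 genes. Leaving out each sample number in turn gave 0 to 14 carriers higher, 0 to 72 lower, 0 to 1004 genes higher and 0 to 3595 lower; the zeros came without number 3, where 14 and 22 carriers and 738 and 1463 genes had an unadjusted p under 0.05. Without number 2 there were 2 carriers higher and 7 lower, and 419 and 296 genes. Apart from the fewer samples, or the larger number of genes tested with no filter, the cause was not tested. A pseudocount of 0.1 TPM and a filter on the Vehicle level kept all counts within 1.5 times.

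Some uncalled genes changed sign: by median ratio Slc12a7 (0.0015), Slc25a4 (0.0813), Slc25a5 (0.331) and Slc25a39 (0.192), by quantiles Slc12a7 (0.0600) and Slc25a3 (-0.135), and by the median over libraries Slc25a3 (-0.0512). With numbers left out, Slc25a3 ran between -0.0659 and 0.208, Slc25a39 between -0.415 and 0.0115, Slc34a1 between -1.51 and 0.838, Slc3a1 between -0.918 and 0.518 and Slc6a8 between -0.0214 and 0.195. Depth is unknown, so counting error could not be given for carriers near 1 TPM.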

Other observations

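Of the 161 solute carriers under 1 TPM in Vehicle, 10 were listed at 0 in every Vehicle library, 12 reached 1 TPM with LPS and 7 passed the filter. A gene this low in Vehicle passed only where LPS samples were higher or single samples stood out, so levels are given with no test. Slc2a6 (GLUT6), an intracellular hexose carrier known from leukocytes, had 6.81, 2.53 and 10.5 TPM with LPS and 0.343, 0.513 and 0.587 TPM with Vehicle. Slc4a7 (NBCn1), a sodium bicarbonate cotransporter, had 1.88, 3.58 and 4.81 TPM with LPS and 0.687, 0.687 and 0.877 TPM with Vehicle. Slc15a3, a lysosomal peptide and histidine carrier known from immune cells, had 2.14, 1.16 and 1.32 TPM with LPS and 0.390, 0.200 and 0.360 TPM with Vehicle, and Slc39a8 (ZIP8), a zinc and manganese importer, had 0.607, 1.36 and 1.67 TPM with LPS and 0.153, 0.157 and 0.280 TPM with Vehicle, and neither passed the filter. Slc16a1 (MCT1) had 0.400, 1.69 and 2.39 TPM with LPS and 1.15, 0.313 and 0.593 TPM with Vehicle.

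The urea transporter Slc14a2 was listed at 0 in every library, and the cystine exchanger subunit Slc7a11 did not pass the filter, at 0.0133, 0.707 and 0.610 TPM with LPS and 0.0200, 0.0900 and 0.167 TPM with Vehicle. The betaine transporter Slc6a12 had 0.150, 0 and 0.270 TPM with LPS and 0.943, 0.467 and 0.583 TPM with Vehicle and was not tested. Of 15 organic anion transporter genes of the Slco family 3 were tested and 0 called by limma (1 at an unadjusted p under 0.05, Slco4a1), with Slco3a1 the most abundant at 28.8, 32.8 and 32.5 TPM with LPS and 28.6, 39.2 and 52.8 TPM with Vehicle and Slco4a1 at 1.16, 0.423 and 0.260 TPM with LPS and 1.35, 2.00 and 1.79 TPM with Vehicle, where the groups do not overlap (adjusted p = 0.0918).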
